A study of Mus musculus with 6 samples.

Results

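The 9 genes described here encode enzymes, a receptor and a carrier linked to the polyunsaturated lipids of photoreceptor membranes. These genes are Elovl4, Elovl2, Fads1, Fads2, Acsl6, Agpat3, Lpcat1, Adipor1 and Mfsd2a. They were chosen by symbol among 52143 genes, on the main chromosomes, and each matched 1 gene. RNA came from mouse rods in 2 groups of 3 libraries. In the first group, labelled Jun knockdown, newborn retinas were electroporated on postnatal day 0 with a plasmid for a short hairpin RNA (shRNA) against Jun, which encodes a bZIP transcription factor. In the control group they received a scrambled shRNA plasmid (pLKO.1-Scrambled), and both groups also received Nrlp-EGFP, a reporter that marks rods. EGFP-positive cells were sorted on postnatal day 10 in both groups. The knockdown rests on 1 shRNA clone, only electroporated cells carry the plasmids, and strain, litter and pooling of animals are not given in the labels.

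Rod outer segments are stacks of membrane discs unusually rich in docosahexaenoic acid (DHA), an omega-3 polyunsaturated fatty acid, and they also hold fatty acids of very long chain that few other cells make. DHA is either made by rounds of desaturation and elongation or imported as lysophospholipid, then activated to its coenzyme A ester and built into phospholipids by acyltransferases. Loss of some of these genes is known to damage photoreceptors in mice or people.

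Library depth and marker levels differed between the groups. The labelled libraries held 13211300 to 13998400 counts and the controls 32150100 to 105801000, so that depth and group cannot be told apart. Jun itself had 1.84, 17.6 and 19.3 counts scaled to library size (CPM, with TMM normalisation) in labelled replicates 1, 2 and 3, against 6.47, 5.85 and 7.16 CPM in controls. It was lower in 1 of 3 labelled libraries, so the labels are used below only as labels. Of 9 rod markers 4, Gnat1, Nr2e3, Pde6b and Sag, fell by the test used below. The summed level of all 9 was 10598 to 11456 CPM in the labelled libraries and 50327 to 66780 CPM in controls. Sag alone had 35418.5 to 41509.8 CPM in controls and 3693 to 4864 CPM in the labelled libraries. Nrl, Pde6a and Reep6 were lower in all labelled libraries without passing. Cnga1 and Rp1 did not fall, with log2 fold changes of 0.21 and 0.18 and overlapping groups. Rpe65 and Lrat, defining markers of pigment epithelium, were at 0.252 CPM or less in all 6. Summed Müller glia markers were 276 to 370 CPM in the labelled libraries and 1804 to 2162 CPM in controls. Clu alone had 1160 to 1233 CPM in controls. Of the 9 Müller markers 6 had negative and 3 positive log2 fold changes (0 of 9 passed with edgeR, 3 were lower at an unadjusted p under 0.05). At that unadjusted p 16.8% of all tested genes differed, 10.7% lower and 6.13% higher. Microglia markers summed to 1.75 to 5.10 CPM in the labelled libraries and 681 to 1000.3 CPM in controls (3 of 7 tested fell). Vessel and blood markers summed to 20.3 to 65.8 CPM in the labelled libraries and 165 to 302 CPM in controls (3 of 5 tested fell), with Hba-a1 at 0 in the labelled libraries. Slco1a4 was also at 0 there, but it was at most 0.137 CPM in controls and was not tested. Pigment epithelium markers summed to 0.681 to 86.9 CPM in the labelled libraries and 240.1 to 267 CPM in controls (1 of 4 tested fell). Krt18, the 1 that fell, had 206, 124 and 143 CPM in controls and at most 0.340 CPM in the labelled libraries. Tyrp1 had 69.5 CPM in labelled replicate 3 (log2 fold change 0.20). Cone markers summed to 2342 to 3063 CPM in the labelled libraries and 2859 to 4856 CPM in controls (0 of 8 passed, 1 lower and 1 higher at an unadjusted p under 0.05), and bipolar cell markers to 948 to 1543 CPM in the labelled libraries and 688 to 778 CPM in controls (1 of 8 rose). Amacrine and ganglion cell markers summed to 0.545 to 17.7 CPM in the labelled libraries and 12.3 to 64.8 CPM in controls (0 of 4 passed, 1 lower at an unadjusted p under 0.05). The part of these differences in the results below was not tested.

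Of the 9 genes, 7 passed the filter on low counts and 2 of these, Elovl4 and Agpat3, fell in the libraries labelled Jun knockdown (edgeR's quasi-likelihood test, Benjamini-Hochberg adjusted p under 0.05 over 12815 genes). Over all tested genes 1.35% were called lower and 0.32% higher. None of the 7 was called higher (0 with edgeR, 0 with DESeq2, 0 with limma-voom, and 0 at an unadjusted p under 0.05). For 3 of the 7, Elovl4, Agpat3 and Elovl2, all labelled libraries lay below all controls, against 15.7% of all tested genes. The median log2 fold change of the 7 was -1.79, which is the value of Lpcat1, and over all tested genes it was -0.12. Without labelled replicate 1 the medians were -3.21 for the 7 and -0.24 for all genes, and without control replicate 2 they were -1.10 and 0.013. In sorted bulk samples, fewer rods and less RNA per rod cannot be told apart.

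**Figure D1:**
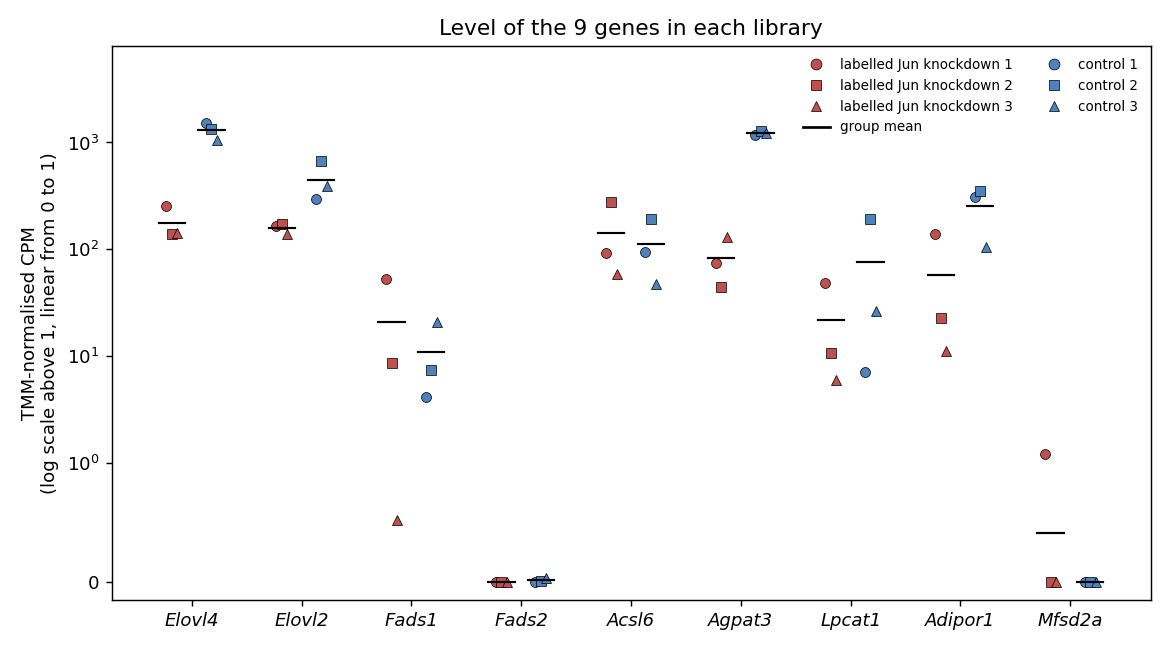
TMM-normalised CPM of each of the 9 genes in every library, with the labelled Jun knockdown libraries left of the controls and a bar at the group mean. The groups do not overlap for Elovl4, Elovl2 and Agpat3, while the other genes overlap or are at or near 0.

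Among the enzymes that lengthen fatty acids, Elovl4 fell and Elovl2 did not pass the test. Elovl4 encodes the elongase that makes the very long chain fatty acids of photoreceptors, and its mutation causes a dominant juvenile macular dystrophy in people. The gene (ENSMUSG00000032262) lies on chromosome 9 from 83778692 to 83806277 on the minus strand (GRCm38). Its promoter is shown because it belongs to 1 of the 2 genes called lower, at chr9:83806256-83806555 on the minus strand, from RefSeq on GRCm38.p6, running from 250 bases before to 50 after the start of transcription. Capitals mark a CACGTG E-box, the motif of basic helix-loop-helix factors, which begins at base 6 after that RefSeq start. The RefSeq start differs from the gene coordinates given above. On the minus strand the match lies upstream of 83806277, where the gene begins.
Elovl4: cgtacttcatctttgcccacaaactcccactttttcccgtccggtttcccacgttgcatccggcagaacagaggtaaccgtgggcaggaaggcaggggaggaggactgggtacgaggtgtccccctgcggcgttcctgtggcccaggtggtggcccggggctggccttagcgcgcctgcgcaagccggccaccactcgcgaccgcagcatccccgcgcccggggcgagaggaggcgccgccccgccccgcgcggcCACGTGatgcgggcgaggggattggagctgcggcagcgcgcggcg

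Elovl4 had 254, 140.0 and 141 CPM in labelled replicates 1, 2 and 3, against 1519, 1347 and 1059 CPM in control replicates 1, 2 and 3. The highest labelled library was therefore far below the lowest control. The means were 178 ± 65.5 CPM in the labelled libraries and 1309 ± 233 CPM in controls (SD, n = 3 each), with a log2 fold change of -2.88 (SE 0.39, edgeR adjusted p = 0.0115). It ranked 42 of 12815 genes by p. Without control replicate 1 or 3 the call ended (adjusted p = 0.0675 and 0.0564), with log2 fold changes of -2.79 and -2.99.

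Elovl2 encodes the elongase that extends polyunsaturated fatty acids towards the precursor of DHA. It (ENSMUSG00000021364) lies on chromosome 13 from 41182381 to 41220405 on the minus strand. Elovl2 had 166, 174 and 140.1 CPM in the labelled libraries and 293, 665 and 392 CPM in controls. The labelled libraries were close to each other and all lay below the lowest control, but the controls spread more widely. The log2 fold change of -1.49 (SE 0.46) did not pass (edgeR adjusted p = 0.144, unadjusted p = 0.00982).

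The desaturases were low or nearly undetected in both groups. Fads1 (ENSMUSG00000010663) and Fads2 (ENSMUSG00000024665) encode the front-end desaturases that place double bonds in polyunsaturated fatty acids, and they lie on chromosome 19, from 10182888 to 10196870 on the plus strand and from 10064164 to 10101503 on the minus strand. Fads1 had 53.0, 8.69 and 0.523 CPM in labelled replicates 1, 2 and 3, against 4.20, 7.42 and 21.0 CPM in controls. The labelled libraries thus held both the highest and the lowest value. The log2 fold change was 0.93 (SE 1.67, edgeR adjusted p = 0.812), and without labelled replicate 1 it was -1.26. Fads2 had 0 estimated counts in each labelled library and 0, 1.01 and 0.994 in the controls, so it was at or under the floor of 3 counts everywhere and no fold is given. That floor corresponds to 0.214 to 0.227 CPM of library totals in the labelled libraries and to 0.0284 to 0.0933 CPM in controls, and covers counting error only.

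Acsl6, which encodes an acyl-CoA synthetase that activates DHA in brain and retina, did not pass the test. It (ENSMUSG00000020333) lies on chromosome 11 from 54303798 to 54364756 on the plus strand. Acsl6 had 92.4, 275 and 58.7 CPM in the labelled libraries and 94.1, 194 and 47.0 CPM in controls, and the groups overlapped. Its log2 fold change was 0.35 (SE 0.81, edgeR adjusted p = 0.855), and it lay between -0.54 and 1.03 with 1 library left out.

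The promoter of Acsl6 is shown because, of 12 RefSeq promoter windows for 8 of the 9 genes, it alone held a TGANTCA match, the motif of AP-1 dimers such as those with JUN. It is the most upstream of 3 windows for the gene, at chr11:54303574-54303873 on the plus strand (GRCm38.p6). Capitals mark the match, whose first base lies 17 bases before the RefSeq start of this window. By the gene coordinates given above, the match lies inside the gene. TGANTCA was found on either strand in 7.81% of 32851 RefSeq promoter windows of the same length. This match describes the letters and says nothing of binding.
Acsl6: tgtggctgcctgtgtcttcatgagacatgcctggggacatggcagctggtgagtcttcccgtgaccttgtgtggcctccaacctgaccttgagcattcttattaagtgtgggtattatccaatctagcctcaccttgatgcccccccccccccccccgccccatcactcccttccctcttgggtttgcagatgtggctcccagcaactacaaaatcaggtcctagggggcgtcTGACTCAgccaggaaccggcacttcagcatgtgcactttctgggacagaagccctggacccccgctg

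By estimates alone, with no test between the 2 genes, Agpat3 fell more than Elovl4 in deposited gene counts and less in summed transcript counts. It encodes an acyltransferase of the endoplasmic reticulum that adds polyunsaturated chains, DHA among them, to lysophosphatidic acid, and it (ENSMUSG00000001211) lies on chromosome 10 from 78269178 to 78352489 on the minus strand. Its RefSeq promoter, at chr10:78351651-78351950 on the minus strand (GRCm38.p6), begins inside the annotated gene. It is shown for comparison with that of Elovl4. All letters are in lower case because none of the 5 motifs searched was found. The window does not hold the starts of Agpat3-201, Agpat3-202 or Agpat3-210, the main forms described below. It therefore says nothing of motifs near those starts.
Agpat3: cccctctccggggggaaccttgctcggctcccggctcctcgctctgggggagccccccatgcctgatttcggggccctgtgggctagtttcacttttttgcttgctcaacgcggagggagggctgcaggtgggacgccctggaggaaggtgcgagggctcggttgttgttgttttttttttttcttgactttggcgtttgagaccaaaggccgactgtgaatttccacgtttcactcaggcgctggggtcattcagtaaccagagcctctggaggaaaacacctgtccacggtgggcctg

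Beside TGANTCA and CACGTG, the motifs searched on both strands were TGACGTCA (the cAMP response element), TAATCC (a core of CRX sites) and TGCTGAC (as in Maf-family sites that NRL can bind). TAATCC was found in 1 of the 12 windows, that of Lpcat1, and in 7.06% of all promoter windows. CACGTG was found in 7.15% of all windows, TGACGTCA in 1.79% and TGCTGAC in 4.67%. TGACGTCA and TGCTGAC were found in 0 of the 12 windows, which says only that these letters are not in them.

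Agpat3 had 75.3, 44.2 and 130.1 CPM in labelled replicates 1, 2 and 3, against 1166, 1276 and 1219 CPM in controls. The controls were close to each other, and every labelled library lay far below them. The means were 83.2 ± 43.5 CPM in the labelled libraries and 1220.2 ± 54.7 CPM in controls (SD, n = 3 each), and the log2 fold change was -3.87 (SE 0.47, edgeR adjusted p = 0.00714). Without control replicate 3 the adjusted p was 0.0516, at a log2 fold change of -3.88.

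The size of that fall depended on how transcripts were combined into a gene value. The deposited gene count of Agpat3 was 0.578, 0.271 and 0.939 times the sum of its transcript counts in labelled replicates 1, 2 and 3, and 1.64, 1.53 and 1.73 times in the controls. For Elovl4 these ratios lay between 0.883 and 1.01 in all 6 libraries. With transcript counts summed, an alternative chosen after the data were seen, Agpat3 had 133, 166 and 138 CPM in the labelled libraries and 696, 855 and 736 CPM in controls. Agpat3 still fell on that scale, with a log2 fold change of -2.39 (SE 0.36, edgeR adjusted p = 0.0147). Elovl4 fell by 2.76 on it (SE 0.38, adjusted p = 0.0105). On summed counts 1.61% of tested genes were called lower and 0.374% higher, and of the 9 genes 2 were called lower and 0 higher.

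**Figure D2:**
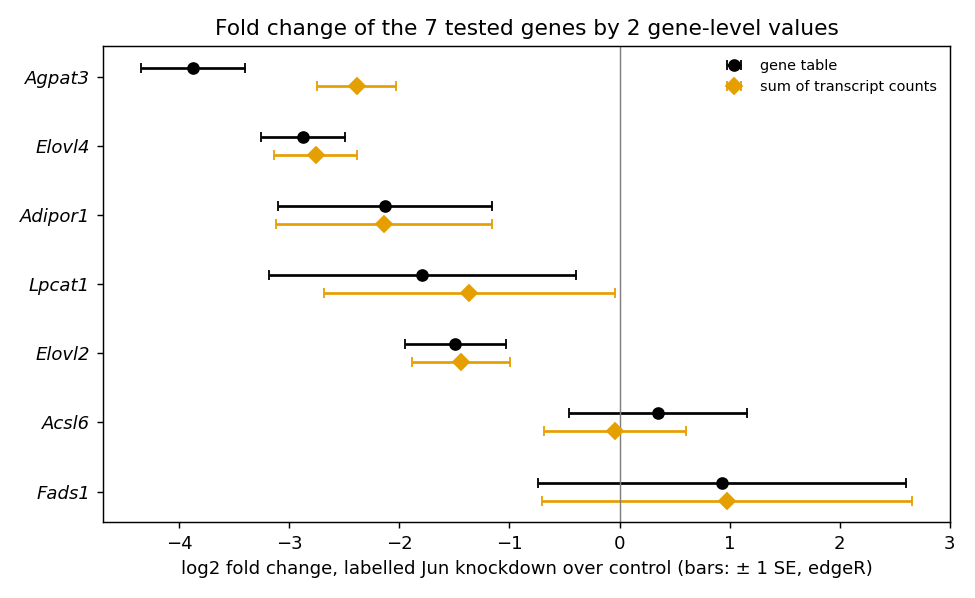
Log2 fold change, labelled Jun knockdown over control, with bars of 1 SE from edgeR, for the 7 tested genes by the deposited gene counts and by summed transcript counts. Agpat3 moves from -3.87 to -2.39 between the scales, whereas Elovl4, Elovl2, Adipor1 and Fads1 keep nearly the same value.

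The shares of 2 annotated forms of Agpat3 did not overlap between the groups. Agpat3-201 is the full-length form, with 5980 bases and 10 exons. Agpat3-202 has 1316 bases, holds the same 1128 coding bases, and begins 57048 bases downstream of Agpat3-201 within the gene. All but 60 of its bases are also in Agpat3-201, so the split of counts between Agpat3-201 and Agpat3-202 is uncertain. Agpat3-210, with 709 bases and 386 coding bases, begins 44892 bases downstream of Agpat3-201, and 274 of its bases are in neither of the other forms.

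Agpat3-201 held 71.8%, 99.0% and 40.9% of the gene's transcript counts in labelled replicates 1, 2 and 3, against 22.1%, 22.3% and 11.2% in controls. Agpat3-210 held 1.39%, 0.969% and 0.342% in the labelled libraries and 21.4%, 20.2% and 22.1% in controls. Neither share overlapped between the groups (exact two-sided permutation p = 0.1 for each, the smallest that 3 against 3 can give, and 0.533 after Benjamini-Hochberg adjustment over the 16 shares compared). Agpat3-202 held 26.7%, 0% and 55.5% in the labelled libraries and 56.3%, 50.2% and 64.9% in controls, and labelled replicate 3 lay within the range of the controls (exact two-sided permutation p = 0.2, adjusted 0.533).

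On the level scale, Agpat3-210 fell and Agpat3-201 did not pass. Agpat3-210 had 1.74, 1.52 and 0.425 CPM in the labelled libraries and 171, 210.3 and 165 CPM in controls, with a log2 fold change of -7.21 (SE 1.01, edgeR adjusted p = 0.0337 over 20706 transcripts). Over all tested transcripts 0.604% were called lower and 0.058% higher. The call of Agpat3-210 ended with any library left out (adjusted p 0.0659 to 0.170) and under scaling by upper quartile (0.0710), library totals (0.0681) or a replicate block (0.109). Agpat3-202 had 32.9, 0 and 71.4 CPM in the labelled libraries and 450.0, 522 and 484 CPM in controls, with no overlap, without passing (log2 fold change -3.80, SE 1.80, adjusted p = 0.381). Without a filter edgeR called it lower (log2 fold change -3.96, adjusted p = 0.000441). The share of all transcripts called lower without a filter is not given here, so this call and those like it below cannot be weighed against it. Agpat3-201 had 88.3, 155 and 52.7 CPM in the labelled libraries and 177, 232 and 83.8 CPM in controls, which overlap. Its log2 fold change was -0.73 (SE 0.70, adjusted p = 0.692), and scaling by upper quartile or library totals turned the sign (0.026 and 0.13).

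**Figure D3:**
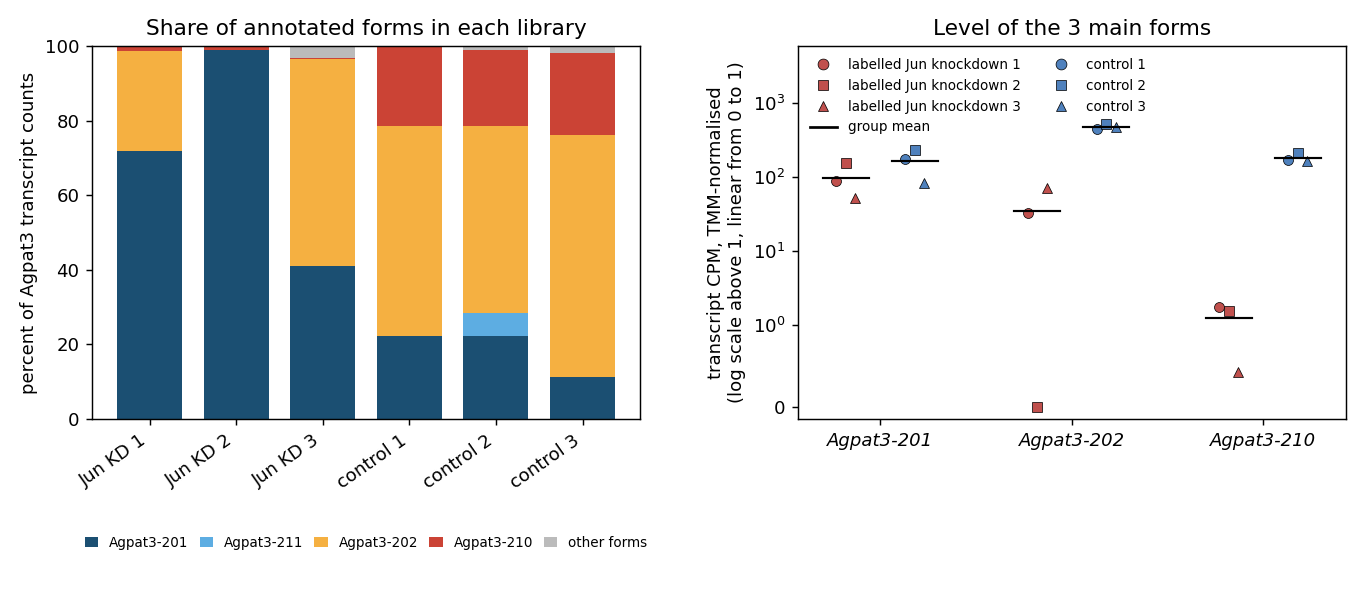
Left, percent of Agpat3 transcript counts assigned to each annotated form in every library. Right, TMM-normalised CPM of the 3 main forms with group means as bars. The full-length Agpat3-201 takes 40.9% to 99.0% in the labelled Jun knockdown libraries and 11.2% to 22.3% in controls, and Agpat3-210 is at most 1.74 CPM in the labelled libraries.

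Lpcat1, which encodes an acyltransferase that remodels phosphatidylcholine and whose loss causes photoreceptor degeneration in mice, did not pass the test. It (ENSMUSG00000021608) lies on chromosome 13 from 73467197 to 73516422 on the plus strand. Lpcat1 had 48.9, 10.6 and 5.95 CPM in labelled replicates 1, 2 and 3, against 7.19, 193 and 26.5 CPM in controls. Control replicate 2, the deepest library, was far above the rest and the groups overlapped. The log2 fold change was -1.79 (SE 1.40, edgeR adjusted p = 0.549), and 0.36 without control replicate 2. Most Lpcat1 transcript counts were assigned to Lpcat1-202, annotated as subject to nonsense-mediated decay, with 98.8%, 100% and 79.8% in the labelled libraries and 63.8%, 71.8% and 99.8% in controls. All 3532 bases of Lpcat1-202 are also in the protein-coding Lpcat1-201, so this assignment is uncertain.

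Adipor1 and Mfsd2a, the receptor and the carrier, gave no call. Adipor1 (ENSMUSG00000026457) encodes an adiponectin receptor that retina needs to keep its DHA in mice, and lies on chromosome 1 from 134415378 to 134433351 on the plus strand. It had 140, 22.9 and 11.1 CPM in labelled replicates 1, 2 and 3, against 306, 350 and 106 CPM in controls. Labelled replicate 1 lay above the lowest control, and the other two lay below all controls. The log2 fold change was -2.13 (SE 0.98, edgeR adjusted p = 0.310), and -3.92 without labelled replicate 1 (adjusted p = 0.0972).

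Mfsd2a (ENSMUSG00000028655) encodes a carrier of lysophospholipid-bound DHA known from the vessels of the brain and from pigment epithelium, and lies on chromosome 4 from 122946850 to 122961188 on the minus strand. It had 17.7 estimated counts in labelled replicate 1 and 0 in the other 5 libraries. In the transcript table all Mfsd2a counts were assigned to Mfsd2a-204, which is annotated without a coding sequence, and Mfsd2a was not tested.

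Of the 50 listed transcripts of the 9 genes, 14 were tested and 2, Elovl4-201 and Agpat3-210, were called lower. For 7 of the 14, Elovl4-201, Elovl4-202, Elovl2-201, Agpat3-202, Agpat3-210, Agpat3-213 and Adipor1-202, all labelled libraries lay below all controls, against 17.6% of all tested transcripts. Elovl4-202, Agpat3-213 and Adipor1-202 passed the filter on low counts only through the controls, so their lower labelled values were nearly fixed by it. Forms of the same gene are also not independent. None of the 14 was called higher with edgeR or limma-voom (0 each, and 0 at an unadjusted p under 0.05). DESeq2 called 1 form higher, Acsl6-208, which was not tested by edgeR. Over all transcripts DESeq2 called 9.43% lower and 5.14% higher, and limma-voom 5.84% lower and 2.09% higher. Beside Agpat3-210, DESeq2 called Agpat3-213, Adipor1-202 and Elovl4-202 lower, and limma-voom called Agpat3-213 and Adipor1-202 lower. Elovl4-201, the full-length form with 3001 bases, had 265, 152 and 148 CPM in the labelled libraries and 1863, 1678 and 1087 CPM in controls. It held 97.9% or more of Elovl4 transcript counts in every library. The log2 fold change of Elovl4-201 was -3.03 (SE 0.38, edgeR adjusted p = 0.0222). Its call ended without labelled replicate 2 or 3 or any 1 control (adjusted p 0.0548 to 0.139), under upper quartile (0.0677) and library totals (0.0586), and with DESeq2 (0.134) and limma-voom (0.0759).

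Forms of Adipor1, Acsl6 and Elovl2 were not called by edgeR with the filter on low counts. Adipor1-202, which has the same coding bases as Adipor1-201, had 0, 0 and 2.43 CPM in the labelled libraries and 51.0, 168 and 39.4 CPM in controls, with no overlap (log2 fold change -6.73, SE 2.50, edgeR adjusted p = 0.236), and DESeq2, limma-voom and edgeR without a filter called it lower (adjusted p 0.0499, 0.0338 and 0.0215). Adipor1-203, an annotated retained-intron form, held 0.185%, 68.1% and 0.551% of Adipor1 counts in the labelled libraries and 0.0116%, 3.41% and 0% in controls, so the Adipor1 counts of labelled replicate 2 were mostly of that form. Acsl6-204 had 108, 38.7 and 55.5 CPM in the labelled libraries and 3.61, 33.0 and 37.9 CPM in controls, apart by a small margin (log2 fold change 1.44, SE 1.17, adjusted p = 0.640). Acsl6 forms share most of their bases, 97.7% between Acsl6-210 and Acsl6-204, so counts may be split between them. For Elovl2, 93.4% or more of counts were of Elovl2-201 in every library, and the log2 fold change of that form was -1.77 (SE 0.47, adjusted p = 0.101).

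Levels of different genes were compared per length, in length-corrected units (TPM) computed from transcript counts and annotated lengths. In the labelled libraries the order was Elovl4 at 100.3 ± 32.6 TPM, Agpat3 at 72.2 ± 26.04, Elovl2 at 67.6 ± 16.5, Acsl6 at 50.4 ± 38.8, Adipor1 at 29.1 ± 34.4, Lpcat1 at 11.6 ± 11.7, Fads1 at 9.36 ± 12.2 and Mfsd2a at 0.424 ± 0.734 TPM (SD, n = 3), with Fads2 at 0. No neighbours in that order were apart in all libraries. In controls Agpat3 led at 723 ± 99.8 TPM, followed by Elovl4 at 571 ± 123, Elovl2 at 149 ± 75.9, Adipor1 at 105 ± 58.4, Acsl6 at 35.2 ± 26.1, Lpcat1 at 31.0 ± 42.3, Fads1 at 3.83 ± 2.93 and Fads2 at 0.0060 ± 0.0067 TPM, with Mfsd2a at 0. There the ranges were apart between Elovl4 and Elovl2 and between Fads1 and the nearly absent Fads2. In controls Agpat3 and Elovl4 lay above the range of every other gene of the 9. In the labelled libraries the ranges of both overlapped those of Elovl2 and Acsl6, and that of Agpat3 also overlapped that of Adipor1.

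**Figure D4:**
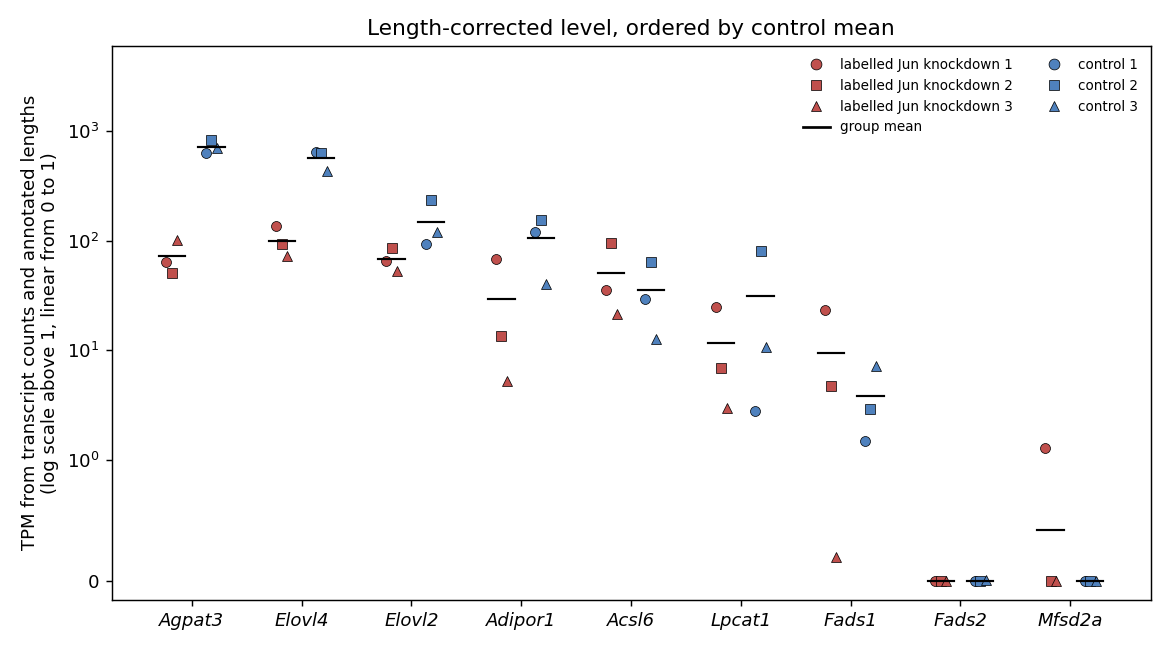
Length-corrected level in TPM of the 9 genes in every library, ordered by control mean, with the labelled Jun knockdown libraries left of the controls and group means as bars. In controls Agpat3 and Elovl4 lie at 429 TPM or more, and in the labelled libraries the highest value of any of the genes is 136 TPM. The level of Agpat3 depends on how counts were assigned to its forms.

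The genes whose profile over the 6 libraries was nearest to each of the 3 genes with the highest mean CPM over those 6 libraries, Elovl4, Agpat3 and Elovl2, were found by the root mean square difference of centred log2 CPM. For Elovl4 they were Gmps, a guanine nucleotide synthesis enzyme gene, at 0.092, and E130218I03Rik at 0.24. For Agpat3 they were Hspa8, which encodes a constitutive heat shock chaperone, at 0.25, and the zinc finger gene Zfp428 at 0.33, which reached at most 4.46 CPM. For Elovl2 they were a septin gene listed in the file as 4-Sep (Sept4 in GENCODE), at 0.17, and 2010315B03Rik at 0.22. Of these 6 genes Hspa8 was called lower (log2 fold change -3.62, edgeR adjusted p = 0.00513). Hspa8 was picked for its likeness to Agpat3, itself called lower, so its lower labelled values were nearly fixed by that choice. All are likenesses over 6 libraries in 2 groups, and the likeness was not tested.

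Of 65 other genes of lipid synthesis and handling, in 7 lists, 49 were tested and none passed in either direction (0 lower and 0 higher with edgeR at an adjusted p under 0.05). At an unadjusted p under 0.05, 4 of the 49 were lower and 2 higher, a share no larger than over all tested genes (10.7% and 6.13%). DESeq2 called 5 lower (Elovl1, Cdh13, Mboat2, Gpam and Lpcat4) and 2 higher (Mboat1 and Acsl5), and limma-voom called Elovl1 lower and 0 higher. Of all genes DESeq2 called 6.96% lower and 5.17% higher, and limma-voom 2.46% lower and 0.991% higher, so these counts, of 57 list genes tested by DESeq2 and 49 by limma-voom, are near the background. Their median log2 fold change was -0.68, beside -0.12 for all tested genes, with 31 negative and 18 positive.

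In the elongation cycle Elovl1, an elongase of saturated and monounsaturated chains, had 0.0681, 0 and 0.131 CPM in the labelled libraries and 40.4, 30.4 and 1.73 CPM in controls. The groups were apart but the controls spread widely (log2 fold change -8.45, SE 2.27, edgeR adjusted p = 0.0961). Elovl1 passed the filter on low counts only through the controls, so its lower labelled values were nearly fixed by it. Tecr, the reductase of the last step of each elongation round, had 24.2, 267 and 119 CPM in the labelled libraries and 759, 778 and 1095 CPM in control libraries (log2 fold change -2.68, SE 0.74, adjusted p = 0.104). All labelled values of Tecr lay below all controls. DESeq2 and limma-voom each called Elovl1 lower, and edgeR without a low-count filter and limma-trend on the deposited values each called Tecr lower. Over all genes edgeR without a filter called 573 of 33087 lower. On 12815 genes limma-trend called 512 (signal plus 0.5) and 475 (plus 2) lower, against 173 in the main edgeR fit.

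Among desaturases, Degs1, which forms ceramide, had a log2 fold change of -1.69 (SE 0.82, with no overlap between the groups) and Scd2, a stearoyl-CoA desaturase, of 1.05 (SE 0.84). Among carriers Fabp7, a fatty acid binding protein with affinity for DHA, had 819, 348 and 723 CPM in the labelled libraries and 327, 118 and 236 CPM in controls. The labelled libraries were all above the controls, by a small margin (log2 fold change 1.47, SE 0.51, edgeR adjusted p = 0.192). Fabp12 differed by 0.48 (SE 0.39).

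Among acyltransferases Mboat1, a lysophospholipid acyltransferase gene, had 10.9, 41.2 and 59.2 CPM in the labelled libraries and 0.549, 3.10 and 0.108 CPM in control libraries (log2 fold change 4.88, SE 1.76, edgeR adjusted p = 0.206), and only DESeq2 called it. Agpat1, of the same family as Agpat3, gave -3.48 (SE 2.06) from levels of at most 8.96 CPM. In head group synthesis Ptdss1 gave -1.56 (SE 1.01) and Chpt1 gave 1.79 (SE 1.54). In peroxisomal chain shortening, the last step of DHA synthesis, Scp2, a sterol carrier and thiolase gene, gave -0.85 (SE 0.39) and Abcd3, a peroxisomal importer, gave 1.30 (SE 0.82), neither with overlap between the groups. Among receptors and regulators Cdh13, a receptor for adiponectin, had 1.16, 3.67 and 2.03 CPM in the labelled libraries and 41.6, 50.8 and 57.7 CPM in control libraries (log2 fold change -4.45, SE 1.28, adjusted p = 0.117), and DESeq2 called it lower. Ppara, a nuclear receptor for fatty acids, gave 2.64 (SE 1.76).

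**Figure D5:**
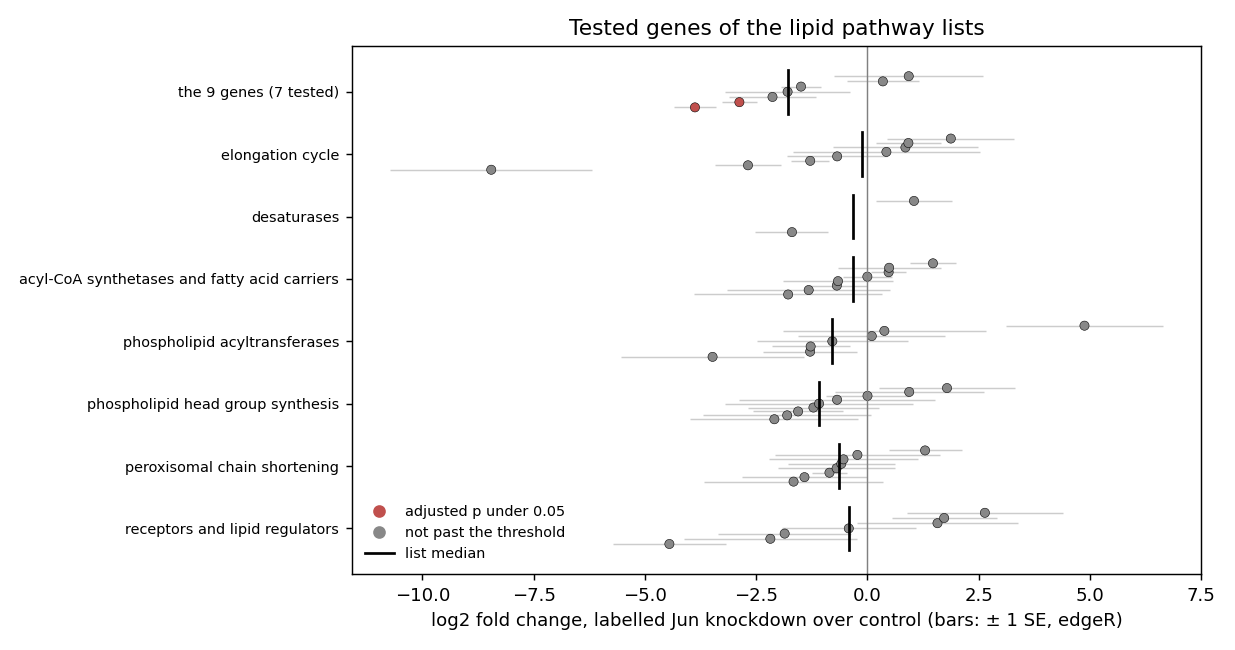
Log2 fold change, labelled Jun knockdown over control, of each tested gene of the 9 and of the 7 other lists, with bars of 1 SE and list medians as vertical lines. The coloured points are Agpat3 and Elovl4, and no gene of the other lists passed.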

How the data were processed

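RNA from sorted mouse rods was sequenced in 6 libraries, 3 per group, with group and replicate number as in the sample titles. Per the labels' protocols, cDNA came from a SMART-seq v4 kit and libraries from Nextera XT, and no step is stated that marks strand. The submitters' processing notes list Trimmomatic 0.39, kallisto 0.44.0 and edgeR 3.28.1 without saying what each did; which genome build was used is not given in those sources. The authors deposited estimated counts per gene and per transcript, rounded here for count tests. Their normalised table, headed CPM, has columns that sum to 1250540 to 2385210, so the deposited values were treated as a signal: in every library they are the gene counts over a single factor. Gene counts are not sums of transcript counts. Of 52143 gene identifiers 51336 were in GENCODE vM21, 98.2% of them at the same position, so coordinates are given on GRCm38. Of 136550 transcripts 98.5% matched by identifier.

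Low-count genes were removed by filterByExpr. edgeR 4.0.16 (R 4.3.3) with TMM factors then compared the groups with no covariate, and p-values were adjusted by Benjamini-Hochberg over all genes or transcripts tested, with a threshold of 0.05. The SE is the size of the log2 fold change over the square root of F. The labels do not say whether replicates came from separate animals, so p-values measure the spread of these samples only, which may be technical. Code was tested on simulated data. The 9 genes and all lists, motifs and alternatives were chosen with earlier results of these data known. Beside the 9 genes, the text names Jun, the 2 genes of each lipid list with the smallest p, and 2 neighbours in profile for each of 3 genes; cell type markers, and genes called by another tool, were chosen with their values in view. Alternatives tried were other scalings, no filter and a strict one, DESeq2 1.42.0, limma-voom (limma 3.58.1), limma-trend on the authors' signal plus 0.5 or 2, thinning all libraries to the smallest total, a threshold of 0.1, a replicate block, leaving out each library, and summed transcript counts. TPM was computed from transcript counts and annotated lengths. No sample column was left out.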

Additional observations from a re-analysis of the deposited data

How the results depend on the processing

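The count of 2 genes called lower held under all 13 alternatives that kept every library, and lay between 0 and 2 when single libraries were omitted (1 without control replicate 1 and 0 without control replicate 3). No alternative called any of the 9 genes higher. Counts that moved were those of other lipid genes called lower, at 1 without a filter, 5 with DESeq2, 1 with limma-voom, 1 at a threshold of 0.1 and 1 with limma-trend on the signal plus 0.5 or plus 2, and called higher, at 2 with DESeq2, each against 0. Transcripts called lower, 2 in the fit reported, were 0 under upper quartile, 0 under library totals, 4 without a filter, 4 with DESeq2, 3 with limma-voom (Agpat3-210, Agpat3-213 and Adipor1-202, without Elovl4-201) and 1 with the replicate block, and 0 to 1 with 1 library left out, and DESeq2 called 1 transcript higher against 0.

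Directions that turned belonged to genes that passed no test. Fads1, at 0.93, gave -0.37 with limma-voom, -0.034 with the replicate block, -0.49 and -0.21 with limma-trend, and -1.26 to 1.85 with 1 library left out. Acsl6, at 0.35, gave -0.046 with limma-voom, -0.038 with summed transcript counts, and -0.54 to 1.03 with 1 library left out. Lpcat1 gave -3.21 to 0.36 when 1 library was omitted. The cause was not tested. Elovl4 and Agpat3 passed under the replicate block too (adjusted p = 0.0147 each). The block rests on numbers only: deviations of same-numbered libraries correlated at 0.00042, 0.0080 and -0.015. These values show no strong shared signal. Taken from means of 3 libraries, they cannot show whether same-numbered libraries shared a litter or a day. Scaling by upper quartile or library totals moved the median gene from -0.12 to 0.27 and 0.38, and Elovl4 then stood at -2.49 and -2.39 and Agpat3 at -3.50 and -3.42. With 13211300 counts in the shallowest library, levels under about 0.227 CPM rest on 3 counts or fewer there.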
